A study of Mus musculus with 7 samples.

Results

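The genes described here are 10 regulators of chromatin loops in mouse neural stem cells (NSCs), namely the cohesin subunits *Rad21*, *Stag1* and *Stag2*, the cohesin loader genes *Nipbl* and *Mau2*, the release and accessory genes *Wapl*, *Pds5a* and *Pds5b*, the acetyltransferase gene *Esco1*, and *Ctcf*. They were listed by symbol, with no measured value in the rule, and were found in the gene counts by matching each gene identifier to its symbol in the Gencode annotation of GRCm38 with the version of the identifier ignored. All 10 were found among 55335 identifiers, and all 10 were among the 13305 genes with enough counts to be tested.

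Cohesin is a ring of SMC1A, SMC3 and RAD21, to which either STAG1 or STAG2 binds. NIPBL and MAU2 load the ring onto DNA, where it extrudes loops until it meets CTCF, the zinc finger protein that marks the boundaries of many domains. WAPL opens the ring and lets it leave, PDS5A and PDS5B take part in release and in holding the ring, and ESCO1 acetylates SMC3, which makes the ring harder to release.

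The samples were 4 wild-type (WT) and 3 *Smchd1*-null NSC samples on the FVB/N strain. The labels give the WT samples as *Smchd1* wild-type, and the null samples carried the MommeD1 mutation of *Smchd1*, whose product, an SMC-like protein, acts in gene silencing. All cells were grown in NeuroCult medium with the growth factors EGF and bFGF, and RNA with a poly(A) tail was copied to cDNA without amplification and read as long nanopore reads in 2 batches. Batch 1, made with the earlier cDNA kit, held WT replicate 2 with null replicates 1 and 2, batch 2 held WT replicates 3 and 4 with null replicate 3, and reads of WT replicate 1 came from both. Age, sex and the animal of origin were not given, so that P-values measure only the spread between these samples, which may be technical. Since the samples are bulk RNA, fewer cells of a type and less RNA per cell cannot be told apart.

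The 7 libraries held 2741820 to 7736498 gene counts, and the 10 genes together took 30059 counts, 0.0902% of all. The count of 3 that serves as a floor corresponded to 0.399 to 1.13 CPM (counts per 1000000 counts of the library, after TMM scaling), and each of the 10 genes was at 12.3 CPM or more in each library. The targeted gene *Smchd1* was at 55.7 to 74.7 CPM in WT and at 12.8 to 18.4 CPM in *Smchd1*-null samples (log2 fold change -2.15, SE 0.18, limma adjusted P-value 0.000110). All 10 NSC markers examined were tested, with summed levels of 8653 to 13570 CPM in WT and 8330 to 9867 CPM in *Smchd1*-null samples. Most of the NSC sum was *Fabp7* (6603 ± 2066 CPM in WT, 5171 ± 911 CPM in null) and *Vim* (2262 ± 81.6 and 2490 ± 76.8 CPM). At an unadjusted limma P-value under 0.05, *Slc1a3*, *Hes5*, *Msi1* and *Fabp7* were lower in null samples. That is 4 of 10, against 6.74% of all genes in that direction, and 0 of 10 passed an adjusted 0.25. *Vim* was higher in each null than in any WT sample. *Msi1* was lower in each, by a narrow gap (at most 36.3 CPM in null and at least 36.6 CPM in WT samples). Of all genes, 5.53% had no overlap of the genotypes. The summed microglial markers stayed at or below 1.11 CPM, the endothelial ones at or below 3.93 CPM and the mesenchymal ones at or below 3.94 CPM. The 6 neuronal markers summed to 371 to 419 CPM in WT and 360 to 381 CPM in null samples. Most of that was *Map2* alone, at 350 ± 10.7 CPM in WT and 343 ± 13.7 CPM in null samples (SD). *Dcx* was at 3.15 to 36.2 CPM in WT, highest in WT replicate 4, and at 3.00 to 4.55 CPM in null samples. The log2 fold change of *Dcx* was -1.38 (limma adjusted P-value 0.323). Of the 6 markers, 4 were below 0, where 49.4% of all genes were. The 5 astrocyte markers summed to 43.0 to 179 CPM in WT and 44.3 to 60.0 CPM in null samples, and the highest of these libraries was WT replicate 4. Without WT replicate 4, 0 of the 10 genes passed an adjusted 0.25 in limma, as with it. In that fit 43 of 12864 tested genes passed, so that a count of 0 of 10 says little about that library. The part of its cell mix in the levels of the 10 genes was not tested.

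The levels of *Stag1* and *Stag2*, and of *Pds5a* and *Pds5b*, can be set against each other only if reads of each pair can be told apart, so the most similar stretch of each pair is shown from the Gencode transcripts. In each line the capitals mark the longest run of bases that the coding sequences of a pair share, with 30 bases on either side. 
Stag1: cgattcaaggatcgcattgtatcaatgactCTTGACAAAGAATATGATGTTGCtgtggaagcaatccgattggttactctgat
Stag2: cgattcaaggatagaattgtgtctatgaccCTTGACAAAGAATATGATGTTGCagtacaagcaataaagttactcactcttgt
Pds5a: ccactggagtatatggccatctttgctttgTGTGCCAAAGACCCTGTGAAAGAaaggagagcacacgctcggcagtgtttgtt
Pds5b: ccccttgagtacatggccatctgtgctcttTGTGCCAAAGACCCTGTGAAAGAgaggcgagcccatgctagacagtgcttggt
The stretches are bases 1117 to 1199 of the *Stag1*, 1108 to 1190 of the *Stag2*, 2833 to 2915 of the *Pds5a* and 2806 to 2888 of the *Pds5b* coding sequence, counted from 1 at the A of the start codon. Over 3677 aligned bases, the coding sequences of *Stag1* (3777 bases) and *Stag2* (3807 bases) were 72.5% identical, and the longest shared run was 23 bases. For *Pds5a* (3999 bases) and *Pds5b* (4350 bases) the identity was 71.6% over 3896 aligned bases, and the longest run was again 23 bases. No paralogue pair among the 10 genes met the limit used for near-identical copies (at least 90% identity over at least 200 bases). Only *Esco1* and *Ctcf* matched another gene at that limit, *Ctcf* over 235 bases of a gene that overlaps it on the other strand and *Esco1* as given with its values.

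No genotype difference passed the cutoffs for any of the 10 genes. Of the 10, 0 passed an adjusted 0.05 in limma, where 0.0902% of all tested genes did, and 0 passed a cutoff of 0.25, where 1.08% did. At an unadjusted P-value under 0.05, *Stag2* and *Mau2* were lower in *Smchd1*-null samples, that is 2 of 10 against 6.74% of all genes in that direction. With the other tests, 0 of 10 were past an unadjusted 0.05, against 5.07% of all genes in edgeR and 4.46% in DESeq2. The levels of the genotypes overlapped for each of the 10 genes, while 5.53% of all genes had no overlap. The number past 0.25 rose when either of 2 libraries was left out, among the 10 genes as among all genes. Without WT replicate 2, *Stag2* (limma adjusted P-value 0.140), *Mau2* (0.155) and *Nipbl* (0.235) passed 0.25, but so did 22.7% of all genes, and without *Smchd1*-null replicate 3, *Mau2* (0.140) and *Stag2* (0.1502) passed it with 23.5% of all genes.

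**Figure D1:**
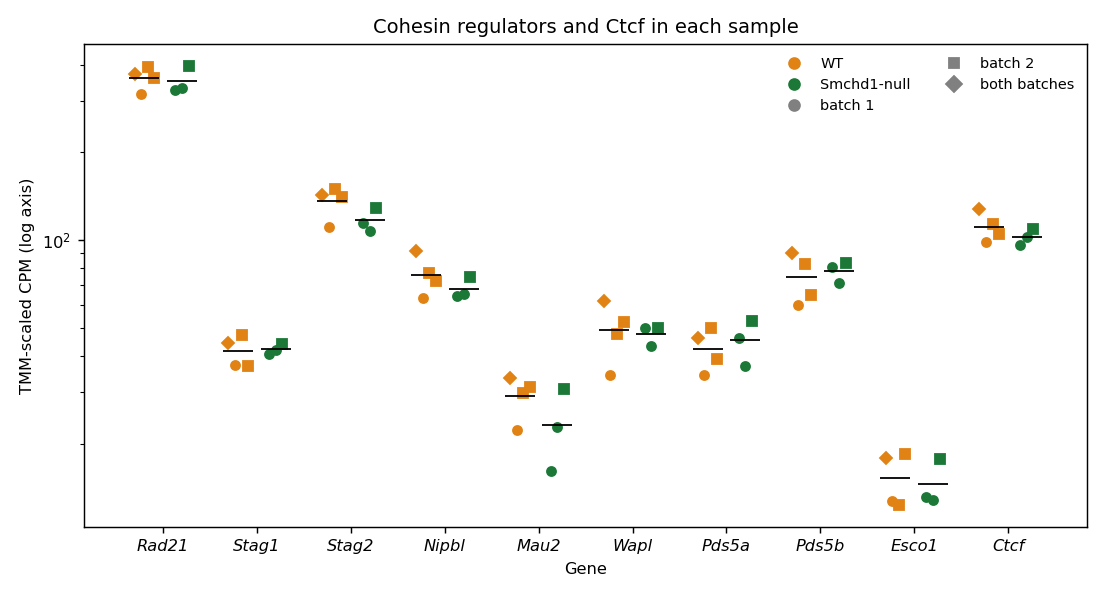
TMM-scaled CPM (vertical log axis) of each of the 10 genes in 4 WT (orange) and 3 Smchd1-null (green) samples, where the marker shape gives the batch and the short line is the mean of the group. The genotypes overlap for each gene, and the batch 1 samples (circles) are often the lowest.

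*Rad21* encodes the kleisin subunit that closes the cohesin ring. It lies on chromosome 15 (GRCm38 51962240 to 51991747, minus strand; ENSMUSG00000022314.10), with 4232 exon bases. Its level was 372, 317, 392 and 359 CPM in WT replicates 1 to 4 and 327, 333 and 396 CPM in *Smchd1*-null replicates 1 to 3. The lowest sample was a WT and the highest a null one. The log2 fold change, null over WT, was -0.11 (SE 0.12, limma adjusted P-value 0.664), and its 95% interval reached from a fall of 21.98% to a rise of 9.92%. Both within-batch differences were above 0, at 0.06 in batch 1 and 0.08 in batch 2, with WT replicate 1 left out of both.

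*Stag1* and *Stag2* encode alternative subunits of the ring, and *Stag2* is X-linked. *Stag1* lies on chromosome 9 (100597798 to 100959375, plus strand; ENSMUSG00000037286.15) with 11781 exon bases, and *Stag2* on chromosome X (42149317 to 42277185, plus strand; ENSMUSG00000025862.14) with 8273. *Stag1* was at 44.2, 37.3, 47.2 and 37.0 CPM in WT and at 40.5, 42.1 and 43.9 CPM in *Smchd1*-null samples. The null samples all fell within the WT range, and the fitted log2 fold change was -0.03 (SE 0.14, limma adjusted P-value 0.943), and the interval held changes from a fall of 20.3% to a rise of 20.6%.

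*Stag2* was at 143, 111, 149 and 140 CPM in WT and at 115, 107 and 129 CPM in *Smchd1*-null samples. WT replicate 2, the batch 1 WT sample, lay among the null samples, and the other 3 WT samples lay above them. The log2 fold change was -0.28 (SE 0.13, limma P-value 0.0419, adjusted 0.347), with an interval from -0.56 to -0.01. Within batches the difference was 0.00 in batch 1 and -0.17 in batch 2, and with batch as a covariate it was -0.10 (limma adjusted P-value 0.848).

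*Nipbl* encodes the main subunit of the loader, and *Mau2* its partner, which stabilises it. *Nipbl* lies on chromosome 15 (8290617 to 8444463, minus strand; ENSMUSG00000022141.7) with 9423 exon bases, and *Mau2* on chromosome 8 (70016123 to 70042734, minus strand; ENSMUSG00000031858.16) with 9131. *Nipbl* was at 91.6, 63.3, 77.3 and 72.2 CPM in WT and at 64.2, 65.1 and 74.9 CPM in *Smchd1*-null samples. WT replicate 1 was the highest and WT replicate 2 the lowest, so that the nulls lay inside the WT range. A log2 fold change of -0.23 was fitted (SE 0.14, limma adjusted P-value 0.447), and the within-batch differences were 0.03 and 0.00.

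*Mau2* was at 33.7, 22.2, 29.9 and 31.2 CPM in WT and at 16.1, 22.8 and 30.7 CPM in *Smchd1*-null samples. Its pooled SD in log-CPM between samples of a genotype, 0.35, was the largest of the 10 genes, and null replicate 1 rested on 43 counts. Its log2 fold change was -0.45 (SE 0.20, limma P-value 0.0433, adjusted 0.348, interval -0.89 to -0.02), and it was -0.19 without null replicate 1 and -0.56 without WT replicate 2. Within batches it was -0.21 in batch 1 and 0.01 in batch 2, and with batch as a covariate -0.13 (limma adjusted P-value 0.885).

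*Wapl* encodes the factor that opens the ring. It lies on chromosome 14 (34673928 to 34747983, plus strand; ENSMUSG00000041408.18) with 6623 exon bases. Its level was 61.8, 34.4, 47.7 and 52.5 CPM in WT and 49.9, 43.3 and 49.8 CPM in *Smchd1*-null samples. WT samples held both the highest and the lowest value. Its log2 fold change was -0.08 (SE 0.17, limma adjusted P-value 0.846), and the batches differed in what they gave, with 0.43 in batch 1 and -0.01 in batch 2.

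*Pds5a* and *Pds5b* lie far apart on chromosome 5, *Pds5a* at 65605721 to 65698273 on the minus strand (ENSMUSG00000029202.12) with 19335 exon bases and *Pds5b* at 150673739 to 150810690 on the plus strand (ENSMUSG00000034021.15) with 9839. *Pds5a* was at 46.2, 34.4, 49.8 and 38.9 CPM in WT and at 46.2, 37.0 and 52.6 CPM in *Smchd1*-null samples. *Pds5b* was at 90.1, 60.0, 82.6 and 65.0 CPM in WT and at 80.7, 71.5 and 83.6 CPM in null samples. For both, WT replicate 2 was the lowest of the 7. The log2 fold changes were -0.05 for *Pds5a* (SE 0.17, limma adjusted P-value 0.907) and -0.01 for *Pds5b* (SE 0.15, limma adjusted P-value 0.984). The plain means went the other way, with null over WT ratios of 1.07 and 1.06 (and 1.02 for *Stag1*), and a fit without sample weights gave 0.09 for each. The within-batch differences (batch 1, then batch 2) were 0.26 and 0.25 for *Pds5a* and 0.34 and 0.19 for *Pds5b*. *Pds5a* shares 255 and 119 exon bases with the unclassified genes Gm42727 and Gm42729 on the opposite strand, which held 7 and 13 counts over all libraries.

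*Esco1* encodes the acetyltransferase that modifies SMC3 outside DNA replication. It lies on chromosome 18 (10566507 to 10610352, minus strand; ENSMUSG00000024293.16) with 5100 exon bases and had the fewest counts of the 10, 35 to 107 per library. Its level was 17.8, 12.7, 12.3 and 18.3 CPM in WT and 13.1, 12.8 and 17.8 CPM in *Smchd1*-null samples. The null samples lay within the WT range. The log2 fold change was -0.13 (SE 0.21, limma adjusted P-value 0.800), and its interval was the widest of the 10 on the log2 scale, from a fall of 33.2% to a rise of 25.7%. The processed pseudogene Gm7054 was 98.78% identical to *Esco1* over 820 bases and held 47 counts over all libraries against 497 for *Esco1*, so that some reads of the one may have been counted for the other.

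*Ctcf* lies on chromosome 8 (105636568 to 105682922, plus strand; ENSMUSG00000005698.15) with 4860 exon bases. Its level was 128, 98.2, 113 and 105 CPM in WT and 96.5, 102 and 109 CPM in *Smchd1*-null samples. WT replicates 1 and 3 lay above all null samples, and WT replicates 2 and 4 lay among them. The log2 fold change was -0.16 (SE 0.12, limma adjusted P-value 0.540), with an interval from a fall of 25.7% to a rise of 7.08%, and the within-batch differences were 0.02 and 0.00. On the opposite strand its exons overlap *Agrp* by 114 bases and the noncoding gene Gm5914 by 370 bases, with 10 and 57 counts in all. Whether strand was used in counting was not given in the sources used here. The processed pseudogene Gm5915, in an intron of *Ctcf* and with no exon bases in common, held 872 counts against 3541 for *Ctcf*. It did not match *Ctcf* at the limit used for near-identical copies.

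Set side by side, the fitted log2 fold changes were below 0 for 10 of 10 genes, with a median of -0.12, where 49.4% of all tested genes were below 0 and the median over all genes was 0.00. The sign was not stable. With batch as a covariate 4 of 10 were below 0 (median 0.06) and with the trend of gene length removed 6 of 10 (median -0.08). Without sample weights, in edgeR and in DESeq2, 7 of 10 were below 0 each time, with a median of -0.06. None of these settings gave a gene past 0.25. The sample weights of the main fit were 2.03 and 1.83 for null replicates 1 and 2, both of batch 1. They were 0.65 for WT replicate 2, the WT sample of batch 1 alone, and 0.45 to 1.29 for the other samples. The 10 genes are long, with a median of 8702 exon bases against 4160 for all tested genes. Over all 13305 genes the log2 fold change fell with length (Spearman -0.38, where genes are not independent replicates). The cause of the values below 0 was not tested.

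**Figure D2:**
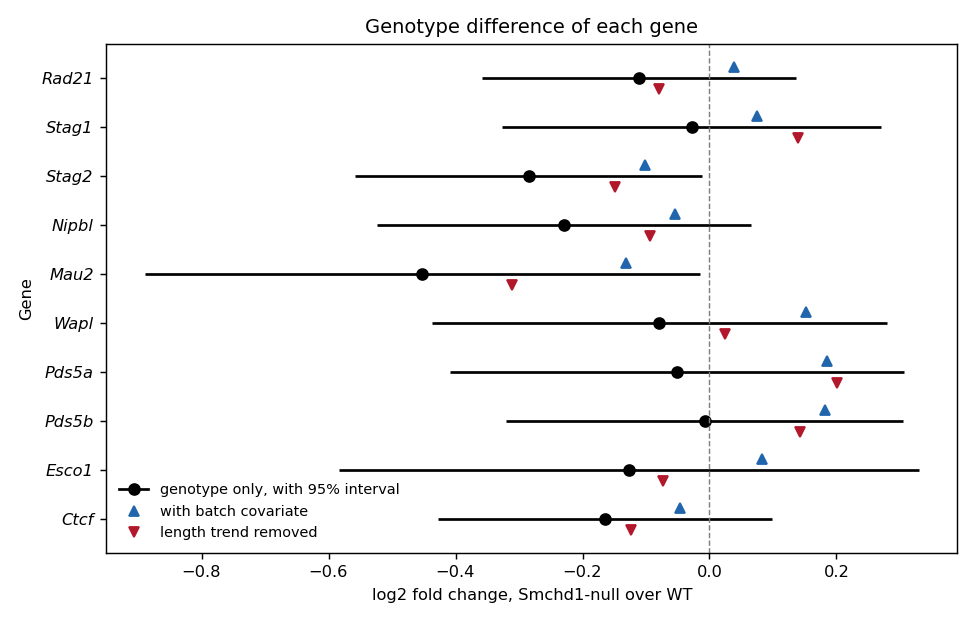
Log2 fold change, Smchd1-null over WT, of each of the 10 genes (horizontal axis), with the 95% interval of the genotype-only fit as a black line, the value with batch as a covariate as a blue triangle and the value with the length trend removed as a red triangle. All 10 black points lie below 0, whereas 6 blue and 4 red triangles lie above it.

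The samples fell apart by batch in the mean level of the 10 genes. Averaged over the 10 genes, log-CPM was 6.002 ± 0.197 over the 4 WT samples and 5.93 ± 0.151 over the 3 null samples (mean ± SD). Relative to the mean of all 7, the samples read in batch 1 alone were below 0, at -0.24 for WT replicate 2 and at -0.12 and -0.14 for null replicates 1 and 2. The samples with batch 2 reads were all above 0, at 0.23, 0.10 and 0.03 for WT replicates 1, 3 and 4 and at 0.13 for null replicate 3. With the length trend removed WT replicate 4 was at -0.06, below null replicates 1 and 2 at -0.05 and -0.04, so that the split by batch was no longer complete. In WT replicate 2, 0 of 10 genes were above their own mean over the samples, against 10 of 10 in WT replicate 1 and in null replicate 3. The share of all tested genes above their own mean in these libraries was not computed, so other genes may share these counts.

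A limma fit with genotype and batch was made, and its batch term was examined after these values were seen. WT replicate 1, read in both batches, was coded as 0.5, since its share of reads per batch is not known. Its mean level of the 10 genes was the highest of the 7 samples, not midway. The batch coefficient was above 0, that is higher in batch 2, for 10 of 10 genes, where 50.1% of all genes were above 0. Of the 10 genes, 7 passed an adjusted P-value cutoff of 0.25, against 18.9% of all genes in that direction. At 0.05 the count was 1 of 10, against 12.4% of all genes in either direction. The gene past 0.05 was *Mau2*, at 0.54 (SE 0.17, limma adjusted P-value 0.0494). Without WT replicate 1, 8 of 10 passed 0.25, against 19.4% of all genes. With all samples, the other genes lay between 0.14 for *Stag1* and 0.39 for *Pds5a*, with a median over the 10 of 0.28 against 0.00 over all genes. The correlation of gene length with log-CPM within a library moved with batch too, at 0.017 to 0.031 in the 3 samples of batch 1 alone and 0.083 to 0.124 in the other 4. With the length trend removed the median coefficient was 0.16, 9 of 10 were above 0 and 2 of 10, *Rad21* (limma adjusted P-value 0.0907) and *Mau2* (0.135), passed 0.25, against 16.5% of all genes. The labels give a different library kit for each batch, and the part of kit or read length in these levels was not tested.

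**Figure D3:**
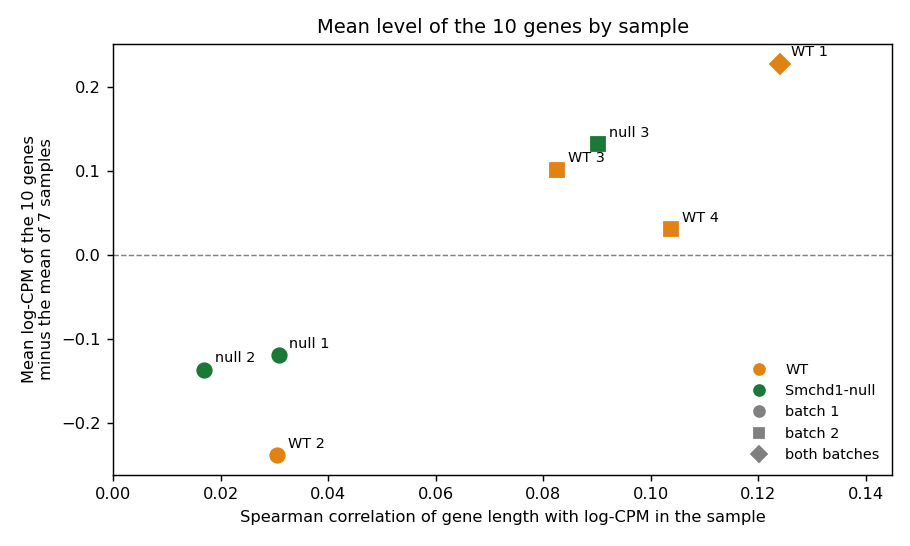
Mean log-CPM of the 10 genes in each sample, as the difference from the mean of 7 samples (vertical axis), against the Spearman correlation of gene length with log-CPM in that sample (horizontal axis), with colour for genotype and shape for batch. The 3 samples of batch 1 alone lie below 0 at the left, and the 4 samples with batch 2 reads lie above 0 at the right, with WT samples in both sets.

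The 10 genes spanned a wide range of levels per length. As CPM per kilobase of exon, meaned over the 7 samples, *Rad21* was highest at 84.2 ± 7.51 (SD, n = 7), followed by *Ctcf* at 22.1 ± 2.23 and *Stag2* at 15.4 ± 2.07. *Pds5b* (7.74 ± 1.11), *Nipbl* (7.71 ± 1.06) and *Wapl* (7.32 ± 1.27) came next at nearly one level. *Stag1* (3.54 ± 0.317), *Esco1* (2.94 ± 0.554), *Mau2* (2.92 ± 0.697) and *Pds5a* (2.25 ± 0.355) were lowest. The other ring genes *Smc3* and *Smc1a*, at 31.9 ± 4.03 and 31.2 ± 3.90 CPM per kilobase, lay between *Rad21* and *Ctcf*.

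Neighbours in this order were compared within each sample by an exact sign-flip permutation test (two-sided), with adjustment over 9 pairs. In 7 of 7 samples, *Rad21* exceeded *Ctcf*, *Ctcf* exceeded *Stag2*, *Stag2* exceeded *Pds5b*, and *Wapl* exceeded *Stag1* (each exact P-value 0.0156, the smallest that 7 samples allow, adjusted 0.0352). No difference was detected between *Pds5b* and *Nipbl* (exact test, adjusted P-value 0.953) or between *Nipbl* and *Wapl* (0.321). Nor was one detected between *Stag1* and *Esco1* (exact test, adjusted 0.112), *Esco1* and *Mau2* (0.721) or *Mau2* and *Pds5a* (0.117). The length used was that of all exons of all annotated transcripts, while a long read can stand for a whole molecule, and without division by length the order of CPM was *Rad21*, *Stag2*, *Ctcf*, *Pds5b*, *Nipbl*, *Wapl*, *Pds5a*, *Stag1*, *Mau2*, *Esco1*. On that scale *Stag2* exceeded *Ctcf* in 7 of 7 samples (exact sign-flip test, adjusted 0.0234), the reverse of the call per length, and *Pds5a*, with its 19335 exon bases, moved up from the last place.

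**Figure D4:**
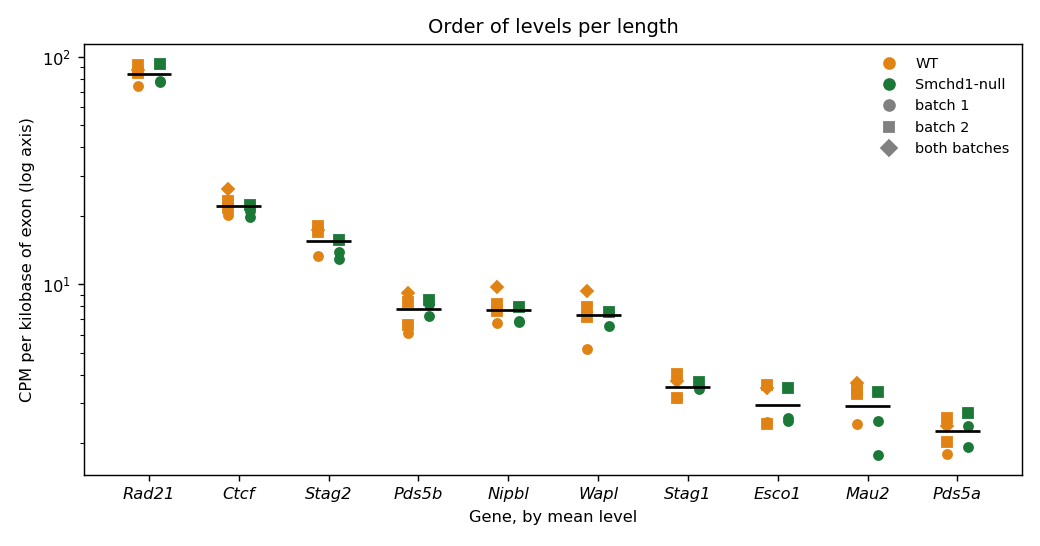
CPM per kilobase of exon (vertical log axis) of the 10 genes in the order of their mean level, with 1 point per sample, colour for genotype, shape for batch and a line for the mean of 7 samples. Rad21 at 84.2 stands above Ctcf at 22.1 and Stag2 at 15.4, and the lowest 4 genes lie between 2.25 and 3.54.

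Ratios within a library do not depend on the scaling of libraries, so 5 of them were compared between genotypes by an exact permutation test (two-sided) over the 35 ways to divide the samples, which cannot give less than 0.0286, with adjustment over the 5. *Stag2* counts exceeded *Stag1* counts by a factor of 3.24, 2.96, 3.17 and 3.79 in WT replicates 1 to 4 and of 2.83, 2.54 and 2.94 in *Smchd1*-null replicates 1 to 3. Every WT ratio lay above every null ratio, with a narrow gap between WT replicate 2 and null replicate 3. The 4 WT ratios averaged 3.29 ± 0.354 and the 3 null ratios 2.77 ± 0.203 (SD). The difference in log2 ratio was -0.24 (exact permutation P-value 0.0571, adjusted 0.286), and it was -0.14 in batch 1 and -0.24 in batch 2. As a share of the counts of both genes, *Stag2* made up 76.6 ± 1.84% in WT and 73.4 ± 1.46% in null samples. The Wilson 95% interval for a single library was several points wide, for example 71.3 to 77.9% in WT replicate 2 and 71.5 to 77.5% in null replicate 3, and covers counting error only.

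*Pds5a* counts were 0.512, 0.574, 0.603 and 0.599 of *Pds5b* counts in WT and 0.572, 0.518 and 0.630 in *Smchd1*-null samples. The means were 0.572 ± 0.0419 and 0.573 ± 0.0559, and the difference in log2 ratio was 0.00 (exact permutation P-value 1). The ratio of loader subunits, *Nipbl* over *Mau2*, was 2.62 ± 0.229 in WT and 3.09 ± 0.796 in null samples, and the exact permutation test gave an adjusted P-value of 0.571. Null replicate 1 stood highest at 3.98, and the log2 difference of 0.21 was 0.02 without it, 0.24 in batch 1 and -0.01 in batch 2. Loader over release, *Nipbl* over *Wapl*, was 1.58 ± 0.200 and 1.43 ± 0.126 (exact permutation test, adjusted 0.571), with a log2 difference of -0.40 in batch 1 and 0.01 in batch 2. *Ctcf* over *Rad21* was 0.309 ± 0.0255 and 0.293 ± 0.0167 (exact permutation test, adjusted 0.571). A single ratio at the smallest possible P-value would have an adjusted value of 0.143 over the 5, so that the adjusted test could not call 1 ratio alone at 0.05, and it does not show that the ratios were alike.

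**Figure D5:**
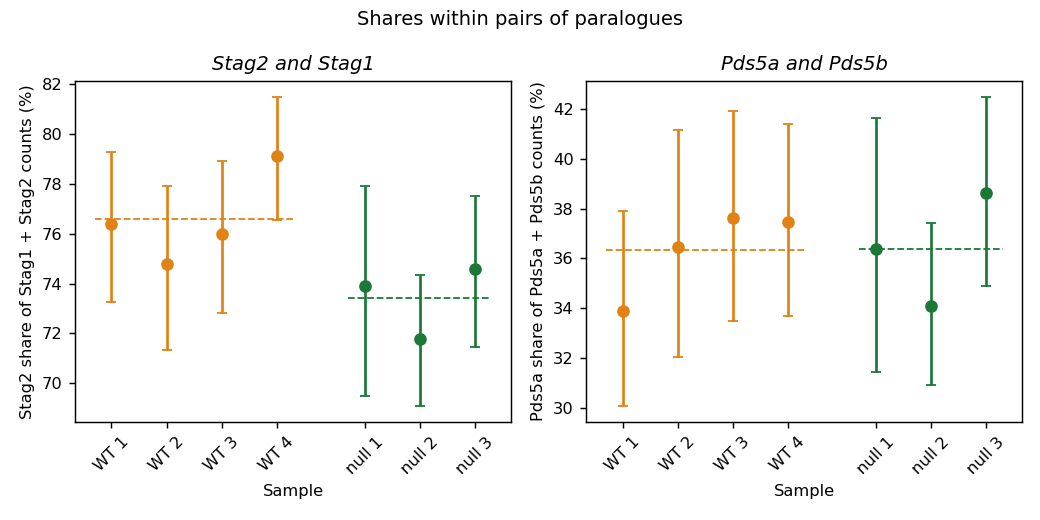
Share of Stag2 in the counts of Stag1 and Stag2 (left) and of Pds5a in those of Pds5a and Pds5b (right), in percent, for each sample, with Wilson 95% intervals for counting error and dashed lines at the mean of each genotype. The vertical axes do not start at 0. Stag2 shares average 76.6% in WT and 73.4% in Smchd1-null samples, and Pds5a shares average 36.4% in both.

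The spread between samples of a genotype differed among the 10 genes, and the order depended on the measure. *Ctcf*, *Rad21* and *Stag1* each had a pooled SD of 0.14 in log-CPM, at percentiles 15.5 to 15.7 of the 8280 genes at or above the level of *Esco1*, whose median SD was 0.23. *Mau2*, at 0.35, was at percentile 84.3. This SD includes counting noise, which is larger for genes with fewer counts, and the percentiles were not matched for level. Set against counting noise (chi-square per degree of freedom), *Rad21* was highest of the 10 genes at 14.8 and *Stag1* lowest at 1.77. At an equal relative spread this measure is larger for genes with more counts. *Rad21* had the most counts of the 10, at 11738 against 1372 for *Stag1*. *Ctcf* was at 4.48 and *Mau2* at 5.45 on that measure. Across the 7 samples the log-CPM of the 10 genes moved together in part, as a description of samples that share batch and depth. Of 45 pairs, 44 had a Pearson correlation above 0, with a median of 0.66. The same values were not computed for pairs of other genes, so they do not set the 10 genes apart. The highest was that of *Ctcf* and *Nipbl* at 0.98, and the lowest that of *Esco1* and *Stag1* at -0.08. Among the 5572 other genes with a mean log-CPM of at least 5, those whose log-CPM followed the mean of the 10 most closely over 7 samples were *Atp2b1* (Pearson r 0.994), *Ankrd17* (0.990), *Ywhaz* (0.988), *Nus1* (0.986) and *Xpo1* (0.985).

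Other genes of the pathway were examined as a list of 38, of which 33 were tested. Of these, 0 passed an adjusted P-value cutoff of 0.25 in limma in either direction, 2 were past an unadjusted 0.05, against 13.9% of all genes, and 15 were below 0, with a median log2 fold change of 0.04. The core of the ring gave no call: *Smc3* was at 173 ± 28.3 CPM in WT and 182 ± 15.2 CPM in *Smchd1*-null samples (SD, n = 4 and 3; log2 fold change 0.11, limma adjusted P-value 0.719), and *Smc1a* at 179 ± 25.7 and 182 ± 22.8 CPM (0.09, adjusted 0.765). Of the 4 meiotic cohesin genes only *Stag3* had enough counts to be tested, at 3.26 to 4.72 CPM in WT and 3.73 to 6.06 CPM in null samples (0.14, limma adjusted P-value 0.862).

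Of 10 genes of cohesin establishment, 9 were tested, and the smallest P-values were those of *Wdhd1*, a replisome gene (log2 fold change 0.30, limma adjusted P-value 0.460), and *Tipin*, of the replication fork complex (0.17, adjusted 0.566). Among 7 tested genes of cohesin removal and cleavage they were those of the mitotic kinase gene *Aurkb* (0.31, limma adjusted P-value 0.409) and of *Sgo1*, the protector of centromeric cohesin (0.15, adjusted 0.672). The 2 genes past an unadjusted 0.05 were zinc finger genes of the boundary group, *Patz1* at -0.48 (limma P-value 0.0364, adjusted 0.339) and *Maz* at 0.40 (0.0480, adjusted 0.357). *Ctcfl*, the germline relative of *Ctcf*, had 1 count in all libraries together. Among the 10 condensin and SMC5/6 genes, *Ncaph2* at 0.27 (limma adjusted P-value 0.428) and *Smc6* at 0.18 (adjusted 0.562) had the smallest P-values. Leaving out either of the same 2 libraries raised the number past 0.25 among these genes, as it did among all genes. Without WT replicate 2, 5 of the genes passed 0.25 (*Maz*, *Aurkb*, *Ncaph2*, *Patz1* and *Wdhd1*), and without *Smchd1*-null replicate 3, 4 did (*Maz*, *Patz1*, *Ncaph2* and *Aurkb*), each time of 32 tested and beside 22.7% and 23.5% of all genes. The summed level of the 6 markers of dividing cells was 1152 to 1640 CPM in WT and 1604 to 1709 CPM in null samples, and its part in these values was not tested.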

How the data were processed

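Direct-cDNA nanopore libraries of 7 mouse NSC samples were compared. The deposited values are whole-number counts of reads per gene, not normalised, with a gene length. The authors aligned reads to mm10 with minimap2 2.17 and counted them per gene with featureCounts on the GRCm38 Gencode annotation, per the study's methods and the submitters' processing notes, and summed the batches of WT replicate 1. Use of strand was not stated in the sources used here, and a read of a near-identical copy may be counted for either gene.

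Genes were filtered with edgeR 4.0.16, scaled by TMM and fitted with limma 3.58.1 (voom with sample quality weights, genotype only), with Benjamini-Hochberg adjustment over 13305 genes at 0.05 and 0.25.  Ratios added 0.5 to each count. Similar transcripts were sought with blastn 2.17.0. Of 55335 identifiers, 55154 matched the Gencode M21 annotation used here and 181 did not. Alternatives included DESeq2 1.42.0, the quasi-likelihood test of edgeR, other scalings and filters, a batch covariate, removal of the length trend and leaving out each sample. In each batch fit that kept WT replicate 1, its batch was coded as 0.5, an assumed value. The batch coefficient was added after seeing the data. The fits were tested on simulated data. The rule for the members uses gene names alone, but the members and lists were chosen with earlier results of these data known. Named genes are all 10 members, *Smchd1*, the 2 companion genes per group with the smallest P-values, and the 5 genes of most similar pattern. The *Gm* genes, *Agrp*, the single cell type markers and genes called without a library were named after their values were seen. The markers of 1 further cell type are not reported here. Pairs of samples of 1 genotype differed by more than counting noise (chi-square per degree of freedom of 2.75 or more), so that each counted once.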

Additional observations from a re-analysis of the deposited data

Results flagged for a closer look

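Of 27 quantities examined for a single sample far from the others of its group, 1 stood apart. *Patz1*, a zinc finger gene of the boundary group, was at a log-CPM of 4.32 in WT replicate 1, against 3.89 to 3.94 in the other WT samples. By chance about 1 in 20 such groups, here 1.35, would be expected to stand apart.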

How the results depend on the processing

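No gene of the 10 passed 0.05 under any of the 21 fits, and the fitted value was below 0 in all 21 for *Stag2* (-0.36 to -0.062) and *Mau2* (-0.56 to -0.072), each past 0.25 in 2 of them. The number of the 10 genes past 0.25 ranged from 0 to 3 when a sample was left out, and the number below 0 from 6 to 10. Among the companion genes past 0.25 the range was 0 to 5. The median log2 fold change ranged from -0.19 to -0.02 in those fits.

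The number below 0 was 4 with the batch covariate, 2 with it and without WT replicate 1 (median 0.075), 6 with the length trend removed, and 4 with both length trend and batch (median 0.075). The labels do not give samples with the same replicate number as pairs (correlations of their deviations -0.04, 0.36 and 0.09 for replicates 1, 2 and 3). Replicates 2 of both genotypes were in batch 1 and replicates 3 of both in batch 2, so the replicate block is not separate from batch. With the block 5 of 10 genes were below 0 and none passed 0.25, with or without the length trend (5 with it removed). The block turned *Stag1* (0.024), *Wapl* (0.10), *Pds5a* (0.074), *Pds5b* (0.085) and *Esco1* (0.096) to above 0, as did the block with the length trend removed (0.092, 0.14, 0.16, 0.15 and 0.087).

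With the batch covariate the log2 fold change turned to above 0 for *Rad21* (0.039), *Stag1* (0.074), *Wapl* (0.15), *Pds5a* (0.18), *Pds5b* (0.18) and *Esco1* (0.083). Without WT replicate 1 as well, the values were 0.055, 0.095, 0.24, 0.22, 0.25 and 0.15, with *Nipbl* at 0.011 and *Ctcf* at 0.0018. With length trend and batch they were 0.053, 0.11, 0.19, 0.23, 0.22 and 0.098. With the length trend alone removed, *Stag1* was 0.14, *Wapl* 0.025, *Pds5a* 0.20 and *Pds5b* 0.14. *Stag1*, *Pds5a* and *Pds5b* also turned in edgeR (0.030, 0.094 and 0.079), in DESeq2 (0.030, 0.093 and 0.077) and without sample weights (0.046, 0.086 and 0.095), and *Pds5a* (0.050) and *Pds5b* (0.065) did with all genes of at least 1 count. Leaving out a sample gave -0.071 to 0.056 for *Stag1*, -0.20 to 0.056 for *Wapl*, -0.15 to 0.18 for *Pds5a*, -0.091 to 0.095 for *Pds5b* and -0.25 to 0.093 for *Esco1*. None of these values passed 0.25, and the cause was not tested.

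The batch coefficient of *Stag1* was -0.054 with the length trend removed. The difference, null minus WT, in the log2 ratio of *Pds5a* to *Pds5b* ranged from -0.069 to 0.072 without single samples, and that of *Nipbl* to *Wapl* was -0.40 within batch 1. In the order of levels, 0 of 9 neighbour pairs passed in any fit with 6 samples, 0 to 0, which is void: at the smallest exact P-value that 6 samples allow, 0.0312, 4 of 9 pairs give an adjusted 0.0703. The genes of lowest level, *Esco1* and *Mau2*, rested on 35 and 43 counts in the smallest library.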
